A study of Gallus gallus with 5 samples.

Results

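Histone genes of the chromosome 1 cluster of the chicken are described here in DT40 cells, a B-cell lymphoma line. The members are 5 genes taken by symbol, namely HIST1H101, which encodes a linker histone, and HIST1H2A4, HIST1H2A4L4, H2AFJ and HIST1H4I, which encode core histones, out of 16143 distinct features in all. They were selected on their counts in this same contrast, in which RNA of each was higher in the cells given doxycycline, so the contrast is a description for them and carries no test. The libraries are 2 labelled CAP-H off (replicates 1 and 3), from cells given 100 ng/ml doxycycline (dox) for 36 h, and 3 labelled CAP-H on (replicates 1, 2 and 3), from cells kept without dox for 36 h. Per the labels, cells of each group are CAP-H knockout (KO) DT40 cells, and what drives CAP-H in the absence of dox is not given in the sources used here. CAP-H is the kleisin subunit of condensin I, a ring complex that compacts chromosomes. No library had dox with CAP-H left on, so dox and the loss of CAP-H cannot be told apart.

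Histones package DNA. An octamer of the core histones H2A, H2B, H3 and H4 wraps DNA into a nucleosome, and the linker histone H1 binds where the DNA enters and leaves it. Replication-dependent histone genes are small, lack introns, lie in clusters and are transcribed mainly in S phase, and their messages end in a stem-loop that is bound by SLBP in place of a poly(A) tail. Replacement variants such as H3.3 and H2A.Z are made outside S phase as well, from single genes elsewhere in the genome.

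Counts of the 5 libraries totalled 12199522 to 22533003 over all rows. No row matched NCAPH, the gene of CAP-H (0 rows), so directions rest on the labels as given. The labels do not say that replicates came from separate cultures, so the p-values reflect library-to-library spread that may be purely technical. Summed levels of marker lists are given in CPM (counts scaled to a common library total), over library totals of the distinct features. Of 13 listed B-cell markers 11 had rows. Their sum was 876 and 913 CPM in the CAP-H off libraries and 1178 to 1234 CPM in the CAP-H on libraries. Of the macrophage markers, MARCO, CD14 and C1QA stood at the empty value of 1 count in every library. LYZ, MPEG1 and TLR4 of the same list did not. The macrophage list (6 of 7 markers with rows) summed to 9.62 and 11.8 CPM in the CAP-H off libraries and to 24.4 to 30.5 CPM in the CAP-H on libraries. The T-cell list (5 of 8) summed to 96.1 and 96.8 CPM in the CAP-H off libraries and 94.1 to 103 CPM in the CAP-H on libraries, the fibroblast list (4 of 5, DCN at 1 count) to 30.3 and 32.4 CPM in the CAP-H off libraries and 31.9 to 37.3 CPM in the CAP-H on libraries, and the erythroid list (3 of 8, TAL1 at 1 count) to at most 0.471 CPM in any library. The part of these levels in the histone values was not tested, and in bulk RNA fewer cells of a type and less RNA per cell cannot be told apart.

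The linker histone gene HIST1H101 lies at galGal4 chromosome 1, 48008792 to 48009451. It stood at 790 and 542 CPM (here after TMM scaling) in CAP-H off replicates 1 and 3, against 182, 178 and 185 CPM in CAP-H on replicates 1, 2 and 3. Both CAP-H off libraries were above all 3 CAP-H on libraries, and replicate 1 was well above replicate 3. The means were 666 ± 175 CPM in the CAP-H off libraries and 182 ± 3.38 CPM in the CAP-H on libraries (SD, n = 2 and n = 3), a log2 fold change of 1.87 (SE 0.11) or 3.66-fold. Without CAP-H off replicate 1 the log2 fold change was 1.57, and without CAP-H off replicate 3 it was 2.12.

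HIST1H2A4 encodes a core histone H2A (47994586 to 47994975). Its level was 2731 and 2524 CPM in CAP-H off replicates 1 and 3, against 828, 884 and 939 CPM in CAP-H on replicates 1, 2 and 3. This was the most abundant of the 5 genes in every library, and its groups did not overlap. The log2 fold change was 1.57 (SE 0.05), or 2.97-fold. HIST1H2A4L4, a further H2A gene and the last row of the stretch described (48032690 to 48033079), stood at 1752 and 1779 CPM in the CAP-H off libraries, against 726, 759 and 795 CPM in the CAP-H on libraries. Here CAP-H off replicate 1 was not above replicate 3, and the log2 fold change was 1.22 (SE 0.04).

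H2AFJ (47958619 to 47959008) also encodes an H2A, and RefSeq lists H2A-IX and HIST1H2A9 among its synonyms. It stood at 1504 and 1406 CPM in CAP-H off replicates 1 and 3, against 547, 567 and 633 CPM in CAP-H on replicates 1, 2 and 3, a log2 fold change of 1.32 (SE 0.06). HIST1H4I (47979632 to 47981002), the only H4 gene among the members, stood at 1705 and 1504 CPM in the CAP-H off libraries, against 618, 659 and 688 CPM in the CAP-H on libraries, a log2 fold change of 1.29 (SE 0.06). In both genes the groups were apart and CAP-H off replicate 1 was the highest library.

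**Figure D1:**
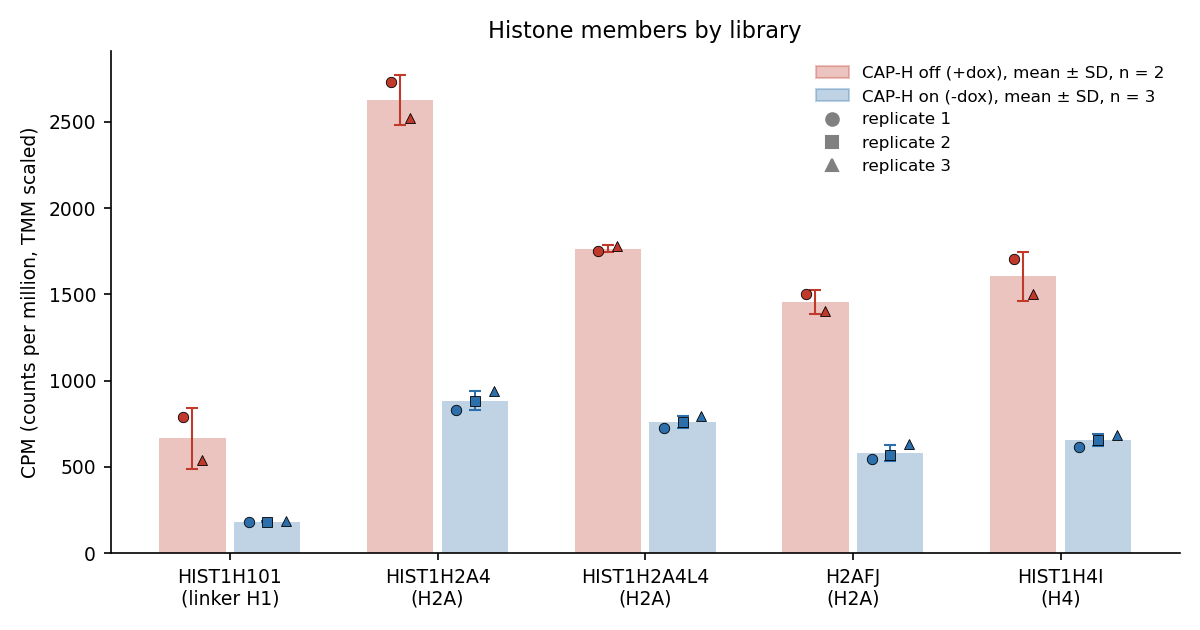
Levels of the 5 histone genes in CPM (vertical axis, after TMM scaling), with the 2 CAP-H off libraries (red) to the left of the 3 CAP-H on libraries (blue) for each gene. Bars are means, error bars SD and symbols single libraries, and in all 5 genes both CAP-H off libraries lie above every CAP-H on library.

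The median log2 fold change of the 5 genes was 1.32, and in all 5 both CAP-H off libraries were above the 3 CAP-H on libraries. Over the 10079 features tested the groups stood apart in that direction in 32.1% and in the opposite direction in 32.9%. By edgeR's quasi-likelihood test at an adjusted p under 0.05, 46.3% were called, 22.6% as higher and 23.7% as lower. The median over all features was 0.00, with a central 95% from -1.09 to 1.21. Ranked by log2 fold change from the highest, HIST1H101 was 84th, HIST1H2A4 134th, H2AFJ 200th, HIST1H4I 212th and HIST1H2A4L4 248th of the 10079. With scaling by library size alone the log2 fold changes of all features shifted by -0.18 at the median, and the lowest of the 5 became 1.04, so the direction of each held under that scaling. The authors' deposited table lists all 5 genes, with log2 fold changes of 1.74 for HIST1H101, 1.48 for HIST1H2A4, 1.21 for H2AFJ, 1.20 for HIST1H4I and 1.12 for HIST1H2A4L4. Which group is over which is not stated for those values.

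Levels of different genes were compared per kb of the row's span. In the CAP-H on libraries HIST1H2A4 stood at 2266 ± 143 CPM per kb, HIST1H2A4L4 at 1949 ± 88.5, H2AFJ at 1493 ± 116, HIST1H4I at 478 ± 25.6 and HIST1H101 at 275 ± 5.12 (SD, n = 3). No neighbours in this order overlapped in their ranges over the 3 libraries. In the CAP-H off libraries the order was the same, with 6737 ± 376, 4528 ± 49.6, 3730 ± 177, 1170 ± 104 and 1009 ± 266 CPM per kb in turn (SD, n = 2), and HIST1H4I and HIST1H101 overlapped. The row of HIST1H4I spans 1371 bp, while the rows of the H2A genes span 390 bp each, the length of their coding sequence, so its level per kb is not on the same footing.

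Linker against core histone, HIST1H101 amounted to 28.8% and 20.9% of the mean level per kb of the 4 core genes in CAP-H off replicates 1 and 3, against 18.9%, 17.6% and 17.0% in CAP-H on replicates 1, 2 and 3. That mean includes HIST1H4I, whose level per kb is not on the same footing. Against the summed CPM of the 4, not divided by span, it amounted to 10.3% and 7.51% in the CAP-H off libraries and 6.71%, 6.21% and 6.05% in the CAP-H on libraries, in the same order of replicates. The log2 fold change of HIST1H101 exceeded the mean of the 4 core genes by 0.52. That difference was 0.27 without CAP-H off replicate 1 and 0.72 without CAP-H off replicate 3. Its size thus rests on which of these libraries is kept, while its sign held in all 10 alternatives. The genes were chosen by this contrast and the alternatives reuse the same libraries, so the held sign is no independent evidence.

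The other linker histone genes with a symbol had smaller log2 fold changes than HIST1H101, a difference that was not tested. Whether any of the 13 rows of the stretch without a symbol is a linker gene is not known here. HIST1H111L (48025515 to 48026284) lies in the same stretch and stood at 314 and 332 CPM in the CAP-H off libraries, against 272, 286 and 283 CPM in the CAP-H on libraries. HIST1H111R (48033554 to 48034296) lies 0.475 kb beyond HIST1H2A4L4 and stood at 316 and 327 CPM in the CAP-H off libraries, against 256, 278 and 283 CPM in the CAP-H on libraries. Their log2 fold changes were 0.20 (SE 0.06, adjusted p = 0.013 by edgeR's quasi-likelihood test) and 0.24 (SE 0.06, adjusted p = 0.0069). With scaling by library size alone these came to 0.02 (adjusted p = 0.78) and 0.06 (adjusted p = 0.46), and with the replicate number as a block HIST1H111L came to 0.22 (adjusted p = 0.055). The authors' deposited table lists neither gene. It holds 3798 rows with a largest FDR of 0.049999, and 23 of the 24 rows of the stretch are among them.

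Among the 3 linker genes with a symbol, HIST1H101 took 55.7% and 45.1% of the summed CPM in CAP-H off replicates 1 and 3, against 25.7%, 24.0% and 24.6% in CAP-H on replicates 1, 2 and 3. Per kb of span it was the lowest of the 3 in the CAP-H on libraries, at 275 CPM per kb beside 364 for HIST1H111L and 367 for HIST1H111R. In the CAP-H off libraries it was the highest, at 1009 CPM per kb beside 419 and 432. These shares follow from the contrast by which HIST1H101 was picked and carry no test.

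**Figure D2:**
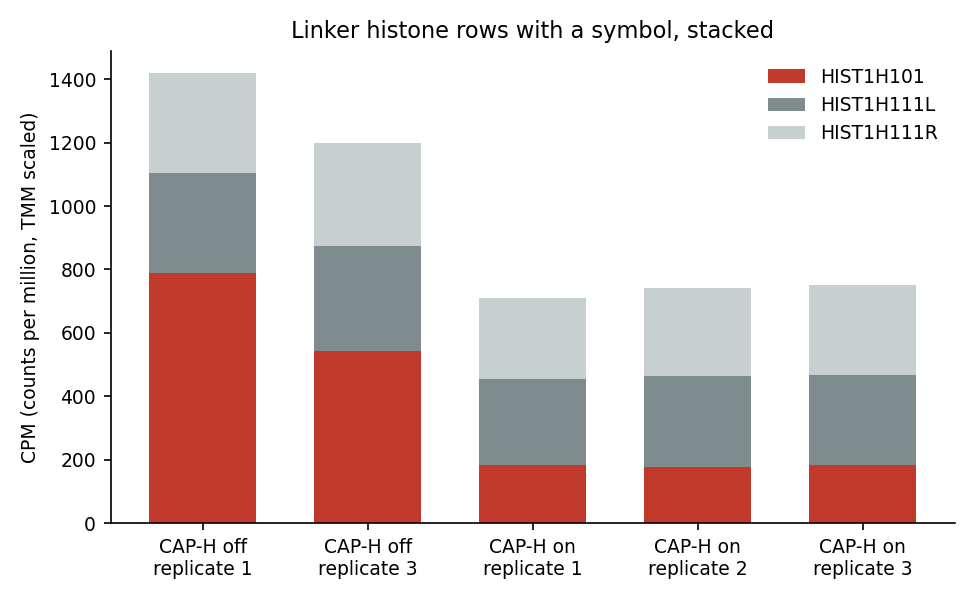
CPM of the 3 linker histone rows with a symbol (vertical axis, after TMM scaling), stacked for each library, with the 2 CAP-H off libraries to the left of the 3 CAP-H on libraries. HIST1H101 makes up 55.7% and 45.1% of the stack in CAP-H off replicates 1 and 3 and at most 25.7% in the CAP-H on libraries.

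The 5 genes span 74.5 kb of chromosome 1, from 47958619 to 48033079, and 24 rows lie there, none of which overlaps another (0 rows). Of these, 11 have a symbol, all of them histone symbols, and 13 have none. Beside the 5 members the stretch holds 19 rows, and all 19 passed as higher in the CAP-H off libraries by edgeR's quasi-likelihood test, against 22.6% of all features, with log2 fold changes from 0.20 to 1.74 and a median of 1.18. In all 19 the groups did not overlap, against 32.1% of all features, and no row passed as lower (0 rows) by that test, by DESeq2 or at an unadjusted p under 0.05. Summed over the 24 rows, the stretch took 3.39% and 3.10% of the counts of all distinct features in CAP-H off replicates 1 and 3. Its share was 1.59%, 1.63% and 1.74% in CAP-H on replicates 1, 2 and 3. In CPM the sum was 35055 ± 2152 in the CAP-H off libraries and 15725 ± 914 in the CAP-H on libraries (SD, n = 2 and n = 3), a ratio of 2.23. Many cluster genes are nearly identical in sequence, and reads may have been split or shared between such rows, so the 24 rows are not independent and single rows are uncertain. The ends of the stretch were set by members chosen for their rise in this contrast, so the counts of its rows are no independent evidence.

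By histone type, both H3 genes with a symbol in the stretch passed as higher. HIST2H3D (47974912 to 47976076) averaged 1487 ± 141 CPM in the CAP-H off libraries and 624 ± 53.5 CPM in the CAP-H on libraries (1.25, SE 0.07, adjusted p = 5e-10), and HIST2H3A averaged 1718 ± 130 and 758 ± 63.7 CPM in turn (1.18, SE 0.06, adjusted p = 4.2e-10). The H4 gene HIST1H46L6 had 1.31 (adjusted p = 1.8e-10, SE 0.06). The H2B genes HIST1H2B5 and HIST1H2B7L4 rose by 0.63 (SE 0.06, adjusted p = 3e-07) and 0.72 (SE 0.05, adjusted p = 4e-09). Over all rows with a histone symbol in the cluster, the 3 H2A genes had log2 fold changes from 1.22 to 1.57, the 2 H3 genes 1.18 and 1.25, the 4 H4 genes 0.81 to 1.31 and the 3 H2B genes 0.63 to 0.72. The linker genes HIST1H111L and HIST1H111R had 0.20 and 0.24, less than any of these core genes, and HIST1H101 had 1.87. HIST1H101 and all 3 of the H2A genes are members, and the order of the types was not tested.

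Among rows without a symbol, XM_003640372.1 (47997411 to 47997800) had the highest log2 fold change, 1.74 (SE 0.06, adjusted p = 7e-12), with 1733 and 1510 CPM in the CAP-H off libraries, against 454, 492 and 514 CPM in the CAP-H on libraries. XM_003640371.1 (47986800 to 47987496) was nearly as far up at 1.73 (SE 0.12, adjusted p = 7.5e-09), with 782 and 515 CPM in the CAP-H off libraries, against 192, 189 and 205 CPM in the CAP-H on libraries. Its level and its spread between the CAP-H off libraries were like those of HIST1H101. XM_425465.1 rose by 1.55 (SE 0.07, adjusted p = 1.1e-10), XM_001233008.2 by 1.32 (SE 0.05) and XM_416195.3 by 1.22 (SE 0.06, adjusted p = 1.6e-10). The lowest of the 13 rows without a symbol was XM_003640377.1, at 0.70 (SE 0.07).

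Along the stretch the size of the difference was not even. The first 17 rows, from H2AFJ to XM_003640373.1 (47958619 to 48018091), had log2 fold changes from 0.92 to 1.87 with a median of 1.29, and include 4 of the 5 members. The last 7, from HIST1H111L to HIST1H2A4L4, had 0.20 to 1.22 with a median of 0.72. The 5 nearest tested rows to the left, among them the H4 gene HIST1H46 (0.81, SE 0.06, adjusted p = 1.8e-08), all passed as higher, with log2 fold changes from 0.77 to 0.89. To the right, 1 of the 5 nearest tested rows passed, namely HIST1H111R. DDX47, an RNA helicase gene and the next tested row after it, had -0.17 (SE 0.07, adjusted p = 0.061), and FAM234B had 0.13 (SE 0.18, adjusted p = 0.60). The division into 17 and 7 rows was made after the values were seen, by the ratio of CAP-H off replicate 1 to replicate 3, and has no test. Replicate 1 enters the CAP-H off level, so the higher log2 fold changes of the 17 rows are not independent of how they were picked.

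**Figure D3:**
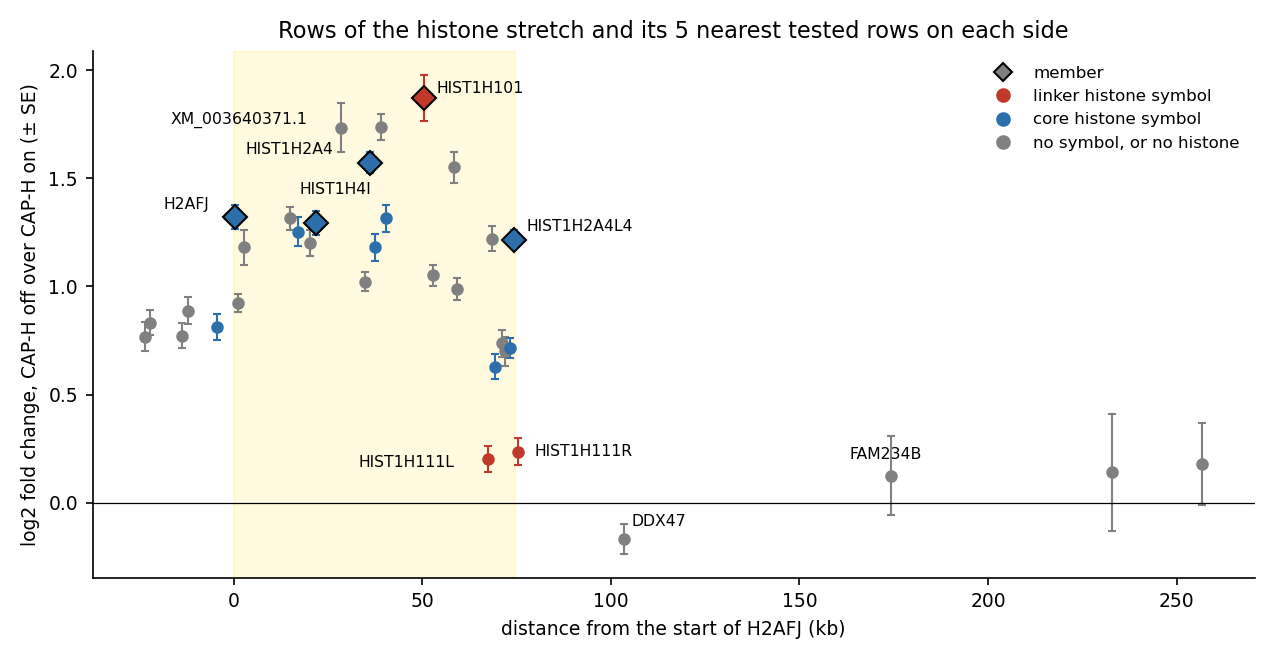
Log2 fold change of CAP-H off over CAP-H on with its SE (vertical axis) against the distance in kb of each row's centre from the start of H2AFJ (horizontal axis), for the 24 rows of the histone stretch (shaded) and the 5 nearest tested rows on each side. Diamonds are the 5 members. The linker genes HIST1H111L and HIST1H111R lie at 0.20 and 0.24, and HIST1H101 at 1.87.

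The 17 rows were picked as the longest run of neighbouring rows with CAP-H off replicate 1 above replicate 3. That replicate 1 was above in all 17 therefore follows from the choice. The log2 ratio of replicate 1 to replicate 3 was 0.05 to 0.60 there (median 0.17), and -0.11 to -0.022 in the other 7 rows. Over the 1008 features with a mean of at least 200 CPM this log2 ratio had a median of -0.0056 and a central 95% from -0.16 to 0.17. Counted in CPM, the excess of replicate 1 ran from 69.6 to 299 CPM over the 17 rows, with a median of 202. It was 248 CPM in HIST1H101, 267 in XM_003640371.1, 207 in HIST1H2A4, 201 in HIST1H4I, 184 in HIST2H3A and 97.7 in H2AFJ, while the level in replicate 3 ran from 515 to 2524 CPM over the 17 rows. In 15 of the 17 rows it lay between 150 and 300 CPM. Of the 283 features with a mean between 500 and 2500 CPM, 16 had an excess of at least 150 CPM in CAP-H off replicate 1, and 13 of these lie in the stretch. The limits of 150 and 300 CPM were not fixed before the values were seen, so these counts carry no test.

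In the CAP-H on libraries the ranges of both sets of rows overlapped. Replicate 1 minus replicate 3 ran from -127 to -2.56 CPM in the 17 rows and from -132 to -10.6 CPM in the other 7, and 23 of the 24 rows were highest in replicate 3. What the excess in CAP-H off replicate 1 comes from was not tested. The sources used here do not say how a read lying over several rows was counted, so it is not known whether the excess is RNA of each single row. It bears most on the rows of low level, and without that library the log2 fold change was 1.57 for HIST1H101 and 1.40 for XM_003640371.1. Replicate 3 alone exceeded the CAP-H on mean by 360 CPM in HIST1H101, 320 in XM_003640371.1, 1640 in HIST1H2A4 and 849 in HIST1H4I, so each of these genes was also higher without replicate 1.

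**Figure D4:**
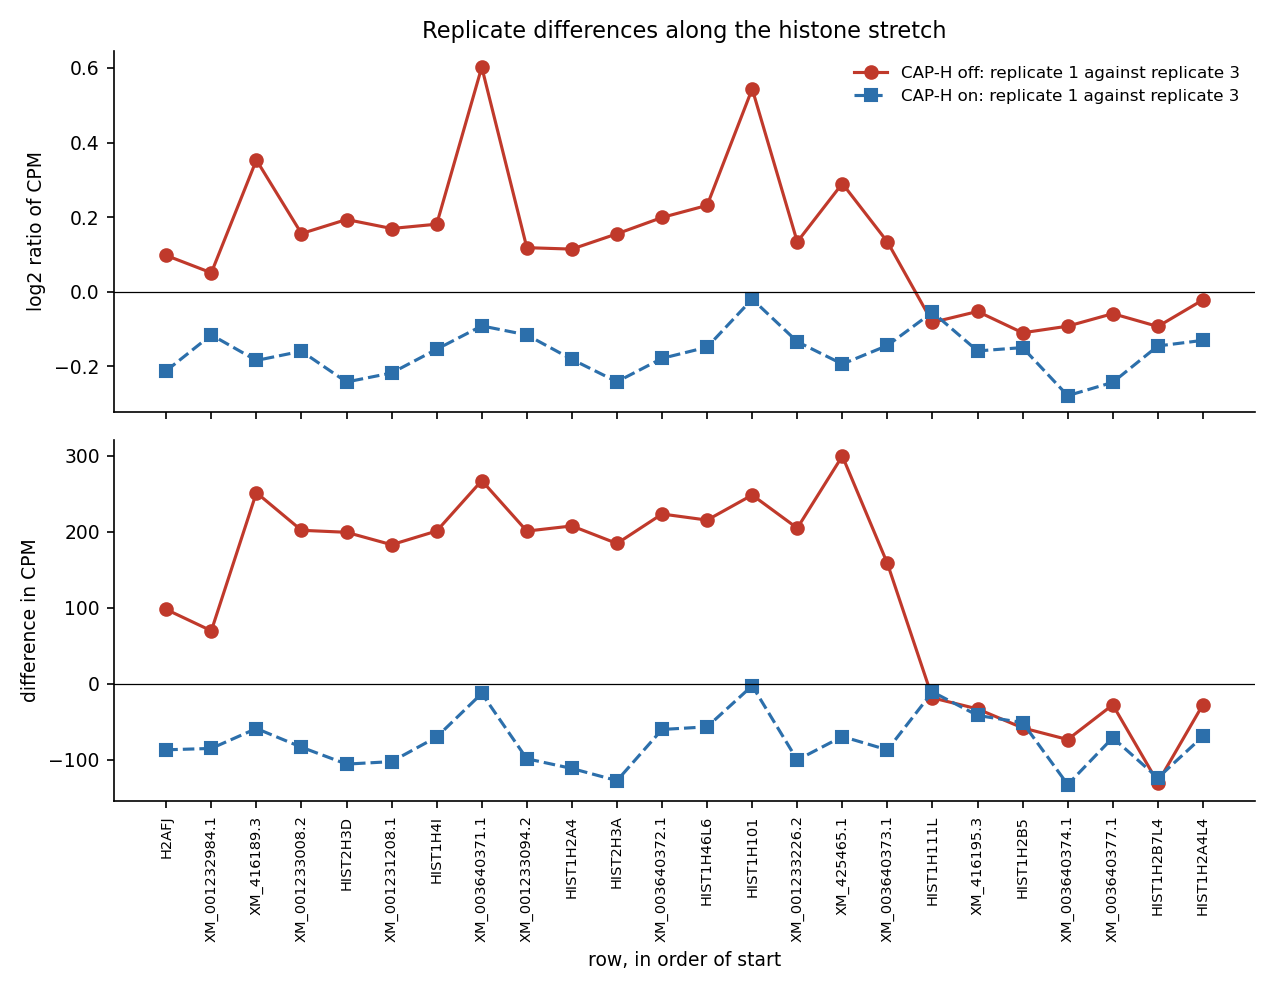
Differences between replicates in the 24 rows of the stretch, in order of start along the horizontal axis, as the log2 ratio of CPM (upper vertical axis) and as the difference in CPM (lower vertical axis), for replicate 1 against replicate 3 of CAP-H off (red) and of CAP-H on (blue). In CAP-H off the first 17 rows lie above 0 and the last 7 below it, and 15 of the 17 lie between 150 and 300 CPM. The 17 rows were picked by this difference.

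Outside the 5 members, 15 histone genes with a symbol were tested, 6 of which lie in the stretch. Of these 12 rose, 0 fell and 3 did not pass, against 22.6% of all features called higher and 23.7% called lower, with a median of 0.63. That most histone genes were higher was known when the list was drawn up, so the count is no independent evidence. All 10 that carry a cluster symbol rose, among them HIST1H2B7 (2000 ± 128 CPM in the CAP-H off libraries and 1287 ± 69.2 CPM in the CAP-H on libraries; 0.64, SE 0.05, adjusted p = 3.1e-08) and HIST1H4D (0.85, SE 0.06, adjusted p = 2.1e-08).

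The 5 replacement variants outside the cluster had log2 fold changes from 0.02 to 0.30, with a median of 0.19, and 2 of them rose. H3F3B, which encodes H3.3, averaged 486 ± 19.8 CPM in the CAP-H off libraries and 395 ± 15.2 CPM in the CAP-H on libraries (0.30, SE 0.06, adjusted p = 6e-04). H2AFY, which encodes macroH2A, had 0.26 (SE 0.07, adjusted p = 0.0088), and did not pass when CAP-H off replicate 1 was left out (0.11, adjusted p = 0.36). Both calls were lost with scaling by library size alone, at 0.12 (adjusted p = 0.077) for H3F3B and 0.07 (adjusted p = 0.41) for H2AFY. H2AFZ, which encodes H2A.Z, averaged 307 ± 13.7 CPM in the CAP-H off libraries and 302 ± 32.5 CPM in the CAP-H on libraries (0.02, adjusted p = 0.85), and H3F3C had 0.19 (adjusted p = 0.19). CENPA, the centromeric H3 variant, had 0.07 (SE 0.26, adjusted p = 0.85). Its level was low, at 3.48 ± 0.502 CPM in the CAP-H off libraries and 3.27 ± 0.267 CPM in the CAP-H on libraries. H3F3C passed as higher without CAP-H on replicate 3 (0.34, adjusted p = 0.0063).

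Genes that serve histone supply were read from a list of 48 regulators of histone genes, histone mRNA processing factors and histone chaperones, of which 28 were tested. In that list 6 rose (22.6% of all features did), 9 fell (23.7%) and 13 did not pass, with a median of -0.01. SLBP, the stem-loop binding protein of histone mRNA, had 67.2 and 67.3 CPM in the CAP-H off libraries, against 60.9, 66.4 and 62.6 CPM in the CAP-H on libraries (0.09, SE 0.06, adjusted p = 0.28). SLBP was named after its values were seen. E2F1, a transcription factor of S phase entry (0.36, SE 0.07, adjusted p = 5e-04), the cyclin E genes CCNE1 (0.34, SE 0.08, adjusted p = 0.004) and CCNE2 (0.20, SE 0.06, adjusted p = 0.012) and the RNA 3′-end processing gene CSTF2 (0.21, SE 0.06, adjusted p = 0.0069) rose.

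Lower in the CAP-H off libraries were NCL, which encodes nucleolin (1115 ± 21.2 CPM in the CAP-H off libraries and 1873 ± 98.6 CPM in the CAP-H on libraries; -0.75, SE 0.04, adjusted p = 2.1e-09), the H3.3 chaperone gene HIRA (-0.43, SE 0.05, adjusted p = 6.3e-06), SSRP1 of the chaperone complex FACT (-0.44, SE 0.06, adjusted p = 3.4e-05) and CASP8AP2, which encodes a histone locus body protein in human cells (-0.40, SE 0.07, adjusted p = 0.00012). The rows of NCL and CCNE2 overlap another feature, and with no strand given their reads cannot be told apart from its reads. Without CAP-H off replicate 1, 2 supply genes rose and 8 fell, where 17.8% of all features were called higher and 19.4% lower. Without CAP-H off replicate 3, 3 rose and 7 fell, where 18.5% of all features were called higher and 19.3% lower. With scaling by library size alone 1 rose and 17 fell, where 12.6% of all features were called higher and 40.9% lower.

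Replication genes were read from a list of 49, of which 32 were tested. In it 12 rose (22.6% of all features did), 7 fell (23.7%) and 13 did not pass, with a median of 0.06. CCNE1 and CCNE2 stand in both this list and the supply list, and are counted as risen in both. TK1, thymidine kinase, averaged 86.7 ± 0.498 CPM in the CAP-H off libraries and 58.4 ± 5.98 CPM in the CAP-H on libraries (0.57, SE 0.08, adjusted p = 1.4e-05). PCNA, the sliding clamp (0.41, SE 0.06, adjusted p = 3.1e-05), and GINS2 of the replicative helicase (0.51, SE 0.09, adjusted p = 0.00017) rose too. POLE, the catalytic subunit of polymerase epsilon (-0.52, SE 0.06, adjusted p = 4.3e-06), CLSPN (-0.43, SE 0.06, adjusted p = 4.8e-05) and the helicase gene MCM4 (-0.38, SE 0.06, adjusted p = 5.4e-05) fell. POLE2, named after its values were seen and counted among the 12, had the largest log2 fold change of the list at 2.30 (SE 0.48, adjusted p = 0.00096), but its groups overlap, with 1214 and 140 CPM in CAP-H off replicates 1 and 3, against 130, 144 and 138 CPM in the CAP-H on libraries. Of the list 7 rose and 7 fell without CAP-H off replicate 1 (17.8% and 19.4% of all features). With scaling by library size alone 5 rose and 13 fell, where 12.6% of all features were called higher and 40.9% lower.

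**Figure D5:**
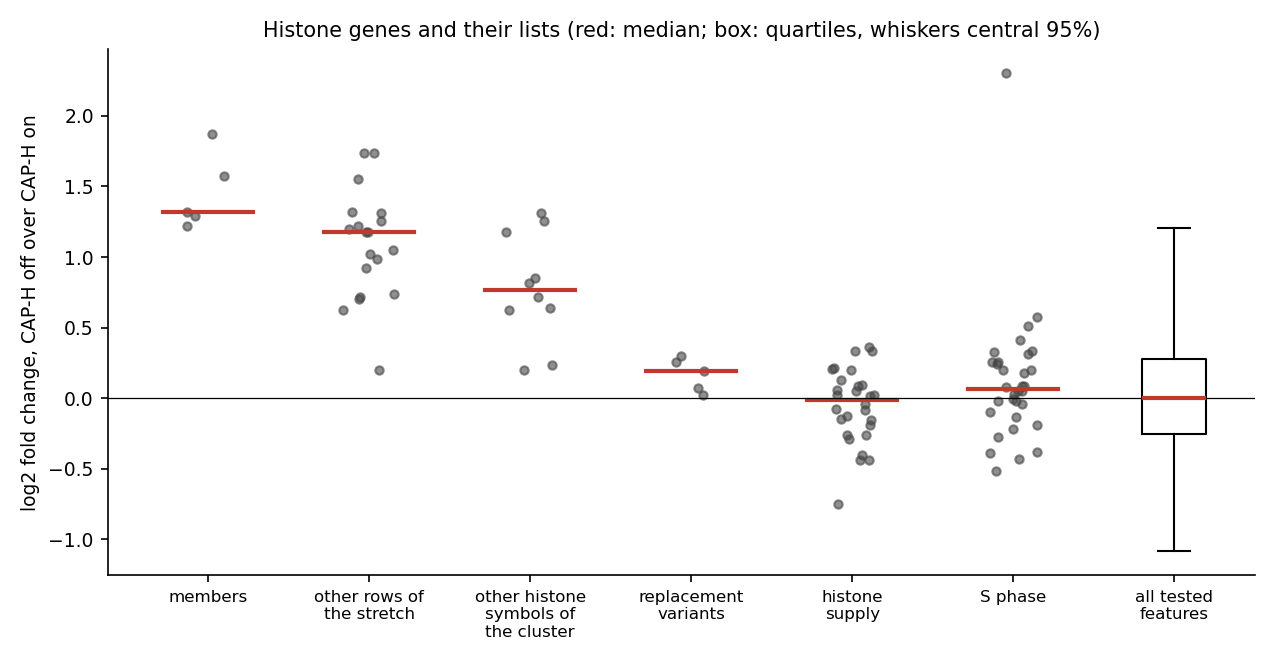
Log2 fold change of CAP-H off over CAP-H on (vertical axis) for the 5 members, the 19 other rows of the stretch, the 10 other histone symbols of the cluster (6 of which are also rows of the stretch), 5 replacement variants, 28 histone supply genes and 32 replication (S phase) genes, with a point for each gene and a red line at the median, and a box for all 10079 features. The medians are 1.32, 1.18, 0.76, 0.19, -0.01 and 0.06 in turn. CCNE1 and CCNE2 are in both the supply and the replication list.

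Genes whose profile over the 5 libraries was most like that of the members were sought among 4223 features outside the stretch with a mean of at least 50 CPM, by the root mean square distance of log2 CPM, each profile being centred on its own mean. The nearest were RPL29, a ribosomal protein gene (distance 0.077), ATG16L2 (0.080), PPDPF (0.081), the ribosomal protein genes RPS21 (0.087) and RPS3 (0.089), and NM_204499.1, a row without a symbol (0.089). The log2 fold changes of these features ran from 1.27 for NM_204499.1 to 1.55 for RPS21. The members were chosen by this contrast, so the likeness carries no test. Within the 5 members the distance to their own mean profile was 0.066 for HIST1H2A4, 0.073 for H2AFJ, 0.079 for HIST1H4I, 0.131 for HIST1H2A4L4 and 0.229 for HIST1H101. Each member helps form that mean, so these distances are not comparable with those of the other genes.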

How the data were processed

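Total RNA of DT40 cells was sequenced, per the labels' protocols. The authors deposited whole-number counts per RefSeq transcript row on galGal4, with 17036 rows per library. Tools listed in the submitters' processing notes, with no role stated, are edgeR 3.2.3, FastQC, Bowtie and TopHat2 2.0.8b. The sources used here give no read counter, strand setting or poly(A) selection. The smallest deposited count was 1, taken as an empty row. Rows of equal interval or accession and equal counts were reduced to 16143 features. Symbols came from a RefSeq table of GRCg7b by accession without version and were found for 8905 rows (52.3%). Coordinates are those of the files.

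The authors' deposited table holds p-values, FDR values, log2 fold changes and mean CPM on a log2 scale, per the file headers, in the layout of an edgeR likelihood ratio test. Its likelihood ratio score, per the file headers the test statistic, was not used. The direction is not stated there.

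All features were fitted together with edgeR 4.0.16 in R 4.3.3 (filterByExpr, TMM, glmQLFit, glmQLFTest, no covariates, Benjamini-Hochberg adjustment, threshold 0.05), which left 10079 features, and the code was tested on simulated counts. Log2 fold changes are CAP-H off over CAP-H on, and the SE is the fold change's size over the square root of F. TMM factors were 0.928 and 0.927 in the CAP-H off libraries and 1.07, 1.04 and 1.04 in the CAP-H on libraries. Alternatives were library size alone, size factors, DESeq2 1.42.0, no filter, the replicate number as a block and leaving out each library. The members and lists were chosen with earlier results of these data known. Named genes are the members, the rows of the stretch (at most 15 without a symbol), the 5 nearest tested rows on each side, all other histone symbols, the 4 supply and 3 replication genes of lowest p in each direction, and the 6 features of most similar profile. Sequences of the genes are not used here.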

Additional observations from a re-analysis of the deposited data

How the results depend on the processing

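All 5 members were higher in the CAP-H off libraries in all 10 alternatives, and the lowest of their 50 log2 fold changes there was 1.04. The members were chosen for their rise in this contrast and the alternatives reuse the same libraries, so this is no independent evidence. Of 190 values of the other 19 rows of the stretch, 188 stayed past the threshold and higher, and the 2 that did not were those of HIST1H111L with library size alone and with the replicate number as a block. With library size alone the median of the members was 1.14, 1 supply gene rose and 17 fell (6 and 9 with TMM), 5 replication genes rose and 13 fell (12 and 7 with TMM), and 1272 of all features were higher and 4119 lower (2281 and 2387 with TMM). In the same setting CENPA, which stood at a low level, had -0.11 and H2AFZ -0.16. H2AFZ had -0.014 with no filter on low counts. Leaving out each library in turn, the linker against core difference ran from 0.27 to 0.72, the members' median from 1.27 to 1.39, supply genes that rose from 2 to 7, replication genes that rose from 7 to 12, H2AFZ from -0.038 to 0.11 and CENPA from -0.075 to 0.21. The linker against core difference is that of HIST1H101 alone against the core members, and does not hold the other linker genes. With CAP-H off replicate 1 or 3 left out, that group is 1 library, assumed to vary like the other group. The cause of these shifts was not tested.

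The replicate numbers pair libraries by number alone. Replicate 1 minus replicate 3 correlated at -0.02 across features between the groups. With the replicate block, on replicates 1 and 3 of each group, the members' median was 1.31, 18 of the 19 other stretch rows rose, and 1867 of all features were higher and 1971 lower.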

Other observations

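The cluster reaches beyond the stretch described. Left of its 5 nearest tested rows lie XM_001232832.2 (0.75, SE 0.06, adjusted p = 1.2e-07 by edgeR's quasi-likelihood test), HIST1H4D, HIST1H2B7, XM_425456.3 and XM_425455.2 (47924628 to 47925017). XM_425455.2 averaged 1222 ± 46.9 CPM in the CAP-H off libraries and 551 ± 29.1 CPM in the CAP-H on libraries (SD, n = 2 and n = 3), and its log2 fold change was 1.15 (adjusted p = 9.6e-11, SE 0.05). Its neighbour XM_425456.3 averaged 726 ± 28.3 CPM in the CAP-H off libraries and 594 ± 32.8 CPM in the CAP-H on libraries, with 0.29 (SE 0.06, adjusted p = 0.00058). The next tested row outward is WBP11, a splicing-related gene, with 139 ± 8.63 CPM in the CAP-H off libraries and 164 ± 4.71 CPM in the CAP-H on libraries (-0.24, SE 0.06, adjusted p = 0.0042). These rows were named after their values were seen.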
